A study of Mus musculus with 7 samples.

Results

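Messenger RNA of 33 genes of cholesterol and fatty acid synthesis was followed in 7 subcutaneous tumours, among 47643 gene rows in all. The genes were taken from a list of named enzymes and regulators, and all 33 were found by symbol. By role they are 7 enzymes that make the isoprenoid precursors by the mevalonate route, 11 enzymes that turn those precursors into squalene and then cholesterol, 6 genes of sterol sensing and transport, and 9 enzymes of fatty acid synthesis and desaturation. The tumours grew from cells that the labels call MTOs, of genotype sgPrkci/Prkcz, after the cells, in 30% Matrigel, were injected under the flank skin of C57BL/6 mice aged 7 weeks. From day 15 the animals received vehicle (3 tumours, replicates 14, 16 and 33) or PEGPH20 at 0.0375 mg/kg, 2 times a week (4 tumours, replicates 11, 12, 19 and 37), over 3 weeks, and the age given for all samples is 13 weeks. PEGPH20 is a pegylated hyaluronidase, an enzyme that cuts the matrix sugar polymer hyaluronan. By its label every tumour carried the same edit of both atypical protein kinase C genes, so no value here compares edited with unedited cells. Prkci read 221 ± 43.1 and 184 ± 28.1 normalised read counts with vehicle and PEGPH20 (SD, n = 3 and 4) and Prkcz 10.0 ± 3.58 and 14.4 ± 5.82, which does not check the edit, since reads come from the 3′ end. In addition the labels do not say whether the cells were 1 clone. The comparison made was PEGPH20 against vehicle.

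Cells make cholesterol from acetyl-CoA through mevalonate, isoprenoid diphosphates, squalene and lanosterol. When membrane sterol is low, the escort protein Scap carries the membrane-bound SREBP transcription factors from the endoplasmic reticulum to the Golgi, where proteases release their active part; when sterol is high, Insig proteins hold Scap back. The SREBP encoded by Srebf2 acts mainly on sterol genes and that of Srebf1 mainly on fatty acid genes, so that transcripts of these pathways often move as a block. Fatty acids are built from the same acetyl-CoA by Acaca and Fasn, and then lengthened and desaturated.

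The stretches of DNA around the starts of some of these genes were searched for letters that SREBP-responsive promoters are known for. RefSeq windows (GRCm38.p6, 250 bases before to 50 after a gene start) matched 26 of the 33 genes, in 35 windows. Motifs were sought on both strands. The sterol response element was searched as TCACNCCAC, and 1 member window held it, that of Hmgcs1 (2.86% of member windows, against 1.24% of all 32851 windows). The CCAAT box, bound by the SREBP partner NF-Y, was searched as CCAAT and was found in 22 of 35 member windows (62.9%, against 37.4% of all windows) and in those of 21 of 26 genes. The GC box GGGCGG was in 74.3% of member windows and 35.7% of all windows, and the E-box CACGTG in 17.1% and 7.15%. Windows of like base content were not set apart for comparison. A match is a stretch of letters and does not show that a factor binds there. Only exact matches were counted, so a window without a match may still hold a variant of the element. The 250 bases before the RefSeq start are printed for Hmgcs1, which held the sterol element, for Lss, Srebf2 and Fasn, whose values were higher with PEGPH20, and for Hsd17b7, whose values went the other way. For Lss, Srebf2 and Hsd17b7 the RefSeq start lies inside the gene coordinates given below, so part of their printed stretches does too. Each is on its gene's strand from 5′ to 3′, and capitals mark the sterol element and every CCAAT or its reverse complement ATTGG, which overlap at 1 place before Fasn.
Hmgcs1 (chr13:119690101-119690350, plus strand): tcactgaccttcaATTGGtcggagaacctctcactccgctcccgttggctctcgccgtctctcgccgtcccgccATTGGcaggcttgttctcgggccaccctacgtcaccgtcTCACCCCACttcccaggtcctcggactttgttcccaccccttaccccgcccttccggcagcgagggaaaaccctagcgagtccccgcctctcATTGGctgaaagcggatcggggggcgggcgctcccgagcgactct
Lss (chr10:76531355-76531604, plus strand): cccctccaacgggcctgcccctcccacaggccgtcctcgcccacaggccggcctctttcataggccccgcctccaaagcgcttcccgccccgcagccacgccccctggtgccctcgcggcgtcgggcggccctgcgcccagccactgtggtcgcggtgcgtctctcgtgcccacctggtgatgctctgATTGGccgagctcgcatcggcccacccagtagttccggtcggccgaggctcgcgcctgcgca
Srebf2 (chr15:82147019-82147268, plus strand): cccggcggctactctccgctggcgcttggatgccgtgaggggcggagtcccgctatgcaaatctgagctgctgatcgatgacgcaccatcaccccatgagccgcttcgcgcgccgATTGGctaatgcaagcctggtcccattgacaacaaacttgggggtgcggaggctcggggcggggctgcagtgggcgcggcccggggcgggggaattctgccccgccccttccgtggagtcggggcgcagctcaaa
Fasn (chr11:120824548-120824797, minus strand): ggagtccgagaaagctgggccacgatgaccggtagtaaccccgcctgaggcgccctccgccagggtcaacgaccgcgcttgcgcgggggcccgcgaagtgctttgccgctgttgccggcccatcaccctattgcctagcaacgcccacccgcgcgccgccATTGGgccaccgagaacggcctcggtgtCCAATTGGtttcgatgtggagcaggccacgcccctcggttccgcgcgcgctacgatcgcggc
Hsd17b7 (chr1:169969206-169969455, minus strand): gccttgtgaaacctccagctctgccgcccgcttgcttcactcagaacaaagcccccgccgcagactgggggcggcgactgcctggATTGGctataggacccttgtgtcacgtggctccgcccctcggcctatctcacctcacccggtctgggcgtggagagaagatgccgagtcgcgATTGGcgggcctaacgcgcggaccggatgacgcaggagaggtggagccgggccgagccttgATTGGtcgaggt

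Libraries were read from the 3′ end of transcripts. They held 4204388 to 4304108 reads with vehicle and 4582238 to 6703775 with PEGPH20. Values are normalised read counts, that is, reads divided by the authors' size factor of the library. They are compared within a gene only. The epithelial genes Epcam and Krt8 were high in all 7 libraries (at least 4188 and 591.7 normalised read counts). Libraries also differed in other tissues' transcripts. The 10 skeletal muscle markers summed to 74.97, 8973 and 425 normalised read counts in the vehicle tumours, in the order 14, 16, 33 kept throughout, and to 1915, 14.5, 17.7 and 571 in the PEGPH20 tumours, in the order 11, 12, 19, 37. Vehicle replicate 16 thus stood apart in muscle. The 7 keratinocyte markers summed to 1158 in vehicle replicate 14 and to 40.9 to 88.5 in the others, and the 6 fibroblast markers to 40635 in vehicle replicate 33 and to 7481 to 19595 in the others. In bulk tissue, fewer cells of a type and less RNA per cell cannot be told apart.

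Most sterol and fatty acid genes read higher with PEGPH20, but none passed the test. Of the 33 genes, 27 had a log2 difference above 0 and 6 below 0, with a median of 0.21, against a median of 0.031 and 54% above 0 over all 17132 tested genes. By limma with Benjamini-Hochberg adjustment 0 members had an adjusted p under 0.05, as did 0% of all tested genes, and edgeR likewise called 0 members and 0% of all genes. DESeq2 called 0 of the 23 members to which it gave an adjusted p, and 0.979% of all such genes. At an unadjusted limma p under 0.05 there were 9 members, all higher with PEGPH20 (7.58% of all tested genes were higher at that level and 4.58% lower), and edgeR gave 6 of 32 members higher and 1, Hsd17b7, lower (13% of all genes in either direction). The 9 were Fdps, Acat2, Lss, Sc5d, Srebf2, Stard4, Fasn, Elovl6 and Fads2. All 33 passed the filter on low values, Fads2 only through its PEGPH20 group. Among the 32 members with a vehicle mean of at least 1, 8 had an unadjusted limma p under 0.05. The number above 0 was 25 to 26 with other library scalings in limma and 23 of 32 in edgeR.

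**Figure D1:**
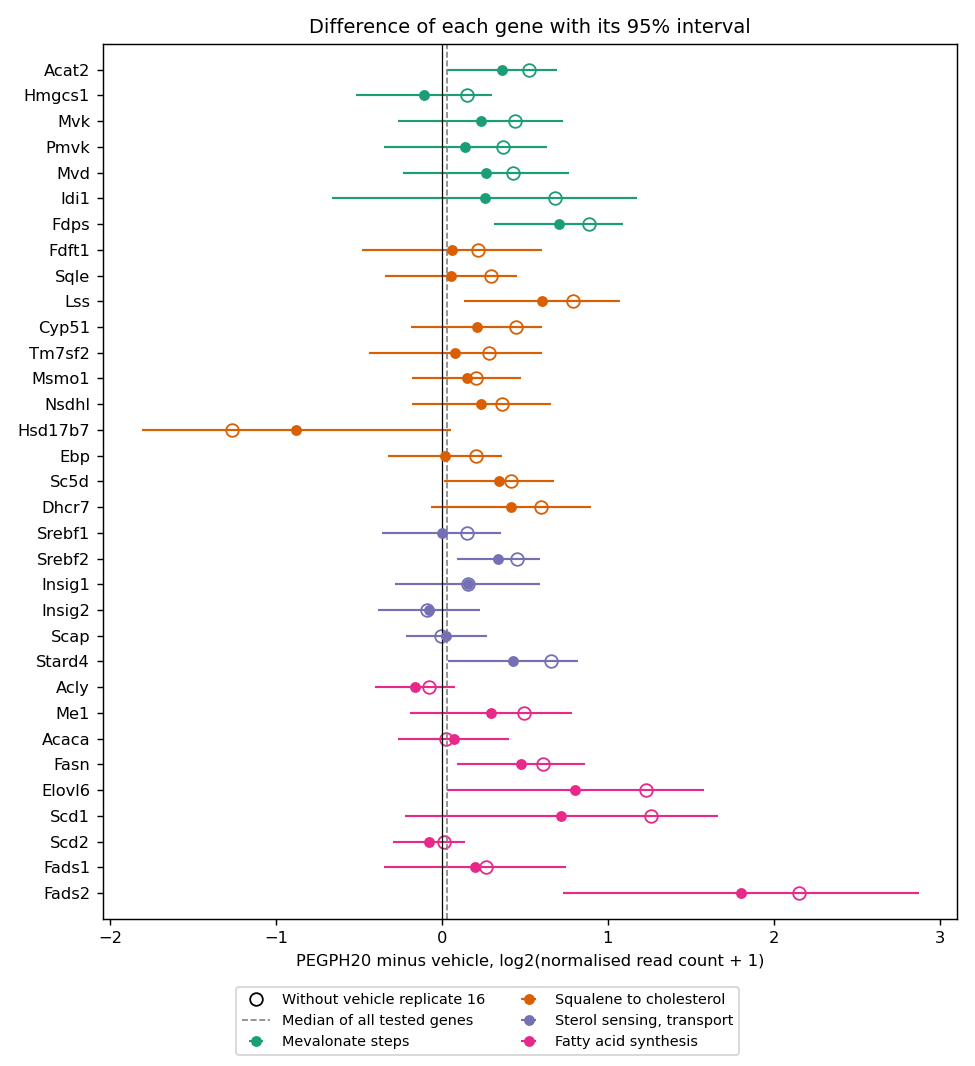
Difference of each of the 33 genes between PEGPH20 (n = 4) and vehicle (n = 3), on the log2(normalised read count + 1) scale (x axis), with 95% intervals from limma. Filled points use all 7 libraries, open circles leave out vehicle replicate 16, and the dashed line is the median of all tested genes (0.031); 27 filled points lie above 0.

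The vehicle tumours did not form a tight group, and replicate 16 was apart from the others. It was the highest of the vehicle libraries for 27 of 33 members, against 45% of all tested genes, and the highest of all 7 libraries for 12 (19.5% of all tested genes). It was highest of the vehicle libraries for 7 of 7 mevalonate enzymes and 10 of 11 enzymes from squalene to cholesterol, with Hsd17b7 as the exception. Vehicle replicates 14 and 33 were the lowest of all 7 for 11 and 13 members (19.2% and 22.2% of all tested genes). As the median deviation from each gene's mean on the log2 scale, the 33 genes stood at -0.24 and -0.29 in vehicle replicates 14 and 33, at 0.18 in vehicle replicate 16, and at 0.11, 0.25, 0.028 and 0.027 in PEGPH20 replicates 11, 12, 19 and 37. Over all tested genes the same medians lay between -0.055 and 0.038. The part of the muscle content of vehicle replicate 16 in this was not tested. Without vehicle replicate 16, 29 of 33 members were above 0 (56.2% of all tested genes) with a median of 0.37 (0.055 over all genes). The median was 0.11 without vehicle replicate 14, 0.13 without vehicle replicate 33 and 0.12 without PEGPH20 replicate 12, with 22, 21 and 25 members above 0. Leaving out vehicle replicate 16 took the number whose groups did not overlap from 3 (Fdps, Lss and the thinly counted Fads2) to 15, all higher with PEGPH20. Of all tested genes 6.72% were higher without overlap and 4.45% lower with all libraries, and 19% and 11.4% without that replicate. With any other single library left out, 3 to 5 members were higher without overlap and 0 to 1 lower. The shares of all tested genes were then 8.7% to 10.2% higher and 5.55% to 9.08% lower. Again 0 members had an adjusted p under 0.05 without vehicle replicate 16 (0.0176% of all genes tested), and the smallest was that of Fdps (limma adjusted p = 0.0623).

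**Figure D2:**
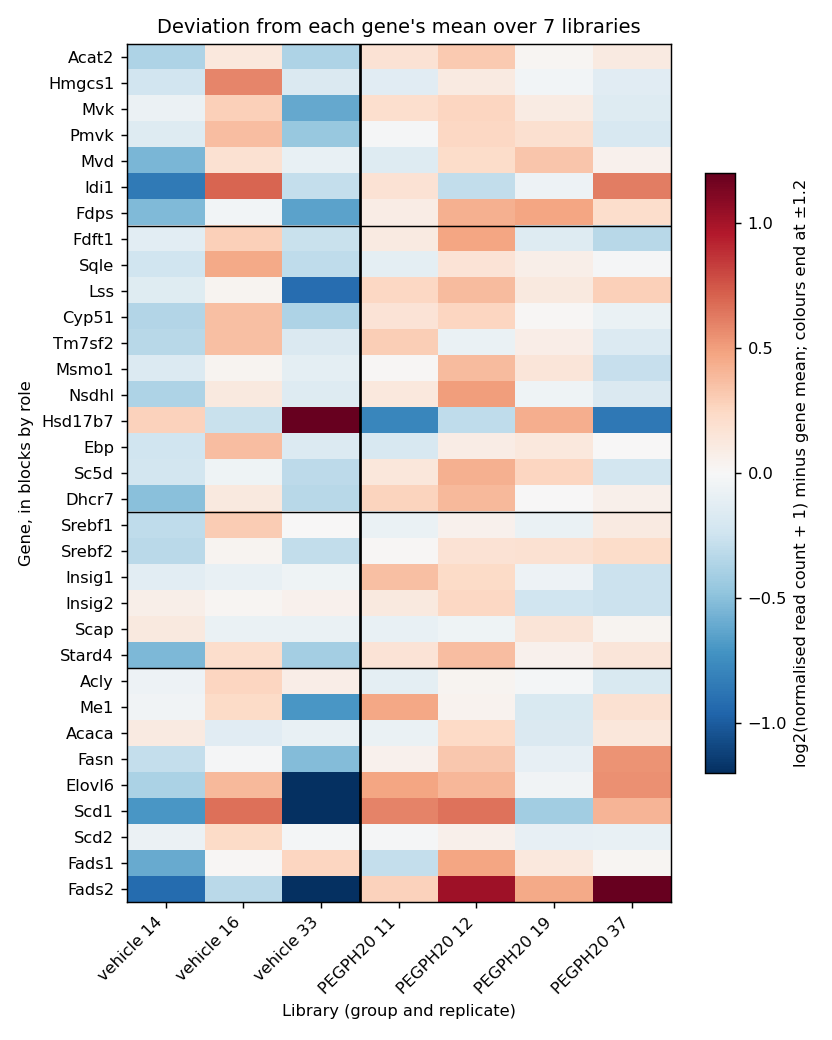
Deviation of each gene (rows, in blocks from top to bottom: mevalonate, squalene to cholesterol, sensing and transport, fatty acids) from its own mean over 7 libraries (columns), in log2(normalised read count + 1); red is above and blue below the mean. Vehicle replicates 14 and 33 are mostly blue, vehicle replicate 16 and PEGPH20 replicate 12 mostly red, and Hsd17b7 runs against its block.

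The same contrast between libraries is visible beside the marker lists. Adipocyte markers matter because fat makes many of the fatty acid enzymes. They summed to 230.1, 719.6 and 229 with vehicle and 398, 327, 252 and 223 with PEGPH20. Of the 7 tested, 5 had a log2 difference above 0 and 2 below. Among these markers, Car3 alone supplied 417 of the 719.6 in vehicle replicate 16, the library with the largest muscle sum. Elsewhere Car3 ranged from 4.36 (vehicle replicate 14) to 92.0 (PEGPH20 replicate 11), so the high sum of replicate 16 came largely from 1 gene. Of the 10, the fat hormone gene Adipoq read 1.74, 2.76 and 0 under vehicle and 12.4, 6.89, 3.31 and 0.730 under PEGPH20, the droplet protein gene Plin1 0.872, 0 and 0 and 3.31, 2.07, 0 and 0, and Lep was at 0 in every library. Cfd, the adipsin gene, was the 1 adipocyte marker whose groups did not overlap, at 1.74, 2.76 and 0.868 and 53.9, 30.3, 18.2 and 2.92. Retn read 0, 0.919 and 0 under vehicle and 4.14, 3.44, 1.10 and 0.730 under PEGPH20. Cidec was at 0 under vehicle and read 2.49, 2.07, 0.552 and 0 under PEGPH20. Fabp4 and Pnpla2 read much higher than these. Fabp4 was at 76.7, 141 and 95.4 and 74.6, 113, 76.8 and 48.2. Pnpla2 was at 93.3, 103 and 91.1 and 106, 90.3, 92.8 and 110. Of the 7 sebaceous gland markers Mc5r was at 0 everywhere and the list summed to 116 to 134 with vehicle and 158 to 167 with PEGPH20, nearly all of it from Krt79 and Cidea. The log2 differences of fibroblast, macrophage and endothelial markers were below 0 in 6 of 6, 6 of 6 and 5 of 5 genes, and those of epithelial markers in 5 of 6. Macrophage markers summed to 1242, 2604 and 1869.7 under vehicle and 1437, 1949.8, 1724 and 1591 under PEGPH20, so replicate 16 was the highest here too and vehicle replicate 14 the lowest. Without replicate 16 their differences were above 0 in 6 of 6 genes (median 0.12, against -0.12 with it). Among epithelial markers both genes without overlap differed in direction. Epcam, at 6226, 5702 and 6398 and 4595, 4188, 5293 and 4842, read lower with PEGPH20, while the tight junction gene Cldn7, named after its values were seen, read higher at 281, 249 and 242 and 391, 384, 369 and 439 (limma adjusted p = 0.238, DESeq2 adjusted p = 0.00715). What these tissues contribute to the values of the 33 genes was not tested.

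**Figure D3:**
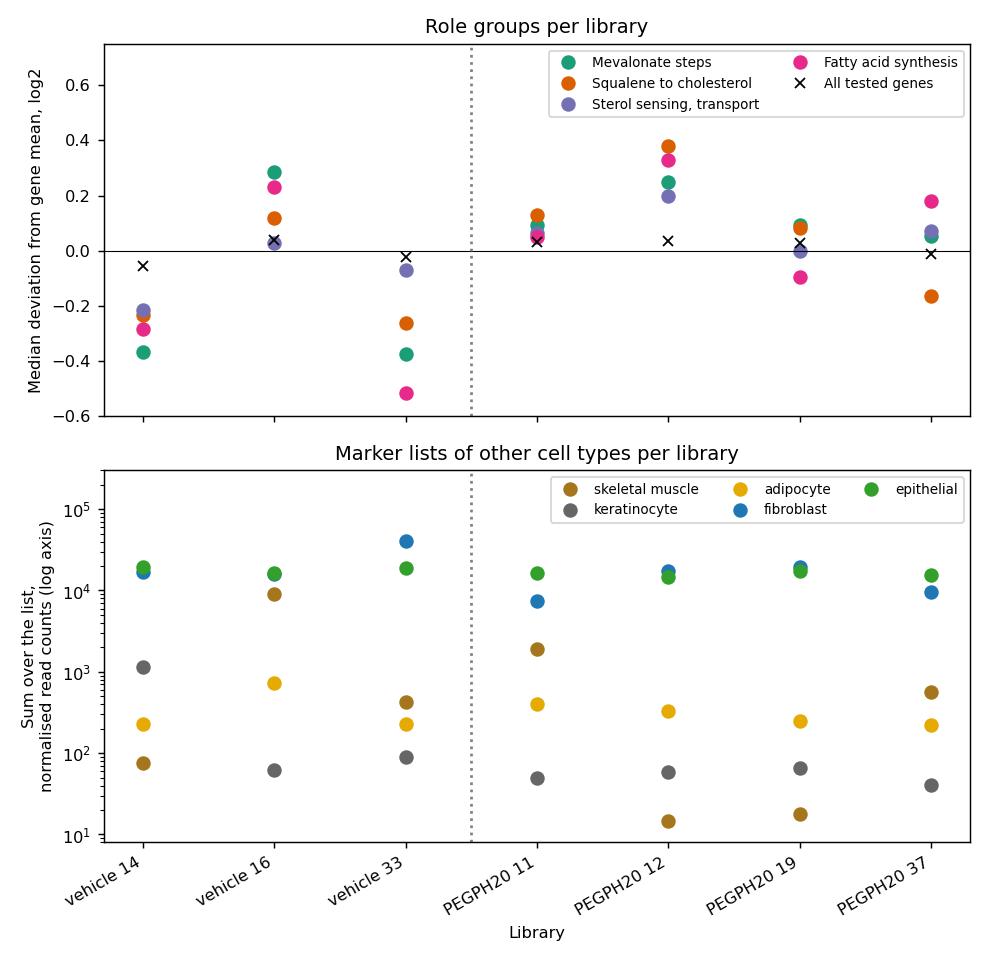
Top: median deviation of each role group from the gene means in each library (log2), with all tested genes as crosses. Bottom: summed normalised read counts of 5 marker lists in the same libraries (log axis). Vehicle replicate 16 has the largest muscle sum, 8973, and a mevalonate deviation of 0.28, while PEGPH20 replicate 12, at 0.25, has a muscle sum of 14.5.

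Of the 7 mevalonate enzymes, 6 read higher with PEGPH20 (median log2 difference 0.26), and the difference was largest for Fdps. Fdps, which joins isoprenoid units into farnesyl diphosphate (ENSMUSG00000059743, GRCm38 chromosome 3, 89093588 to 89101959), read 61.0, 86.4 and 56.4 normalised read counts under vehicle and 94.5, 119, 123 and 103 under PEGPH20. The lowest PEGPH20 tumour lay above the highest vehicle tumour. The log2 difference was 0.70 ± 0.17 (SE; 95% interval 0.31 to 1.09), with limma's adjusted p = 0.302. Its value is uncertain, since 64% of the 75-base stretches in the last 500 bases of its transcripts also occur in other gene models, among them Gm43738 on the same strand.

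Acat2, the thiolase that starts the route from acetyl-CoA, read 95.9, 135 and 95.4 under vehicle and 140.0, 154, 126 and 134 under PEGPH20. Vehicle replicate 16 fell within the PEGPH20 range and the other vehicle tumours were below it. The difference was 0.36 ± 0.15 (limma adjusted p = 0.395), and 16.3% of its 3′ stretches are shared with the neighbouring copy Acat3.

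Hmgcs1, the cytosolic synthase that forms HMG-CoA and the gene with the sterol element printed above, is singled out after its values were seen. It read 608, 1069.7 and 631 under vehicle and 648, 768, 697 and 648 under PEGPH20. Vehicle replicate 16 was the highest of all, and the remaining vehicle tumours lay just under the PEGPH20 range. The difference, -0.11 over the 7 libraries, became 0.15 when that replicate was left out. Its exons lie opposite an antisense gene model, Gm48342, which makes the value uncertain, as whether the counting used strand is not given in the sources used here.

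Kinases and a decarboxylase follow in the route, and replicate 16 was the highest vehicle tumour for each of them. Mvk, which phosphorylates mevalonate, read 48.1 ± 14.8 under vehicle and 55.2 ± 6.74 under PEGPH20 (mean ± SD, n = 3 and 4, as for all means that follow). Pmvk, the next kinase, read 45.4 ± 13.8 and 49.2 ± 6.84. Mvd, which makes isopentenyl diphosphate, read 29.6 ± 7.51 and 35.3 ± 5.18. All of these groups overlapped. Idi1, which isomerises that product, had only 5 to 19 reads per library (8.67 ± 5.38 and 9.75 ± 3.02 normalised read counts). Its 3′ end shares 40.6% of its stretches with other gene models, and an antisense gene model overlaps its exons, so this low value is uncertain.

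From squalene to cholesterol, 10 of 11 enzymes had values above 0 in the difference (median 0.15), from -0.88 for Hsd17b7 to 0.60 for Lss. Lss, which closes squalene epoxide into the sterol ring (ENSMUSG00000033105, GRCm38 chromosome 10, 76531588 to 76557138), read 92.4, 105 and 53.8 under vehicle and 122, 134, 112 and 125 under PEGPH20. The groups did not overlap, and vehicle replicate 33 was far below the rest. The log2 difference was 0.60 ± 0.21 (95% interval 0.13 to 1.07; limma adjusted p = 0.355), and it was 0.32 without vehicle replicate 33. An antisense gene model overlaps the exons of Lss.

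Sc5d, a desaturase near the end of the route, read 321, 362 and 301 under vehicle and 411, 504, 447 and 322 under PEGPH20, with PEGPH20 replicate 37 inside the vehicle range. Its difference was 0.35 ± 0.15 (limma adjusted p = 0.402). Dhcr7, the last reductase before cholesterol, read 24.6 ± 5.88 and 32.8 ± 4.28, a difference of 0.42 ± 0.21.

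Sqle, the squalene epoxidase and a control point of the route, had a difference near 0 while the libraries varied. Its vehicle values were 186, 301 and 178 and its PEGPH20 values 202, 246, 230.3 and 217, with vehicle replicate 16 highest of all. The difference was 0.054 ± 0.18 (95% interval -0.34 to 0.45) and 0.30 without that replicate. Cyp51, the lanosterol demethylase, also had vehicle replicate 16 as its highest library, at 323, 528 and 318 and 462, 491, 415 and 389 (0.21 and 0.45). Its exons overlap those of Akap9 on the other strand.

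For the other enzymes of this stretch the group means differed by less than the larger SD of the groups. Msmo1, a methylsterol oxidase, read 400.3 ± 29.6 with vehicle and 449 ± 85.2 with PEGPH20, and Nsdhl, which removes the oxidised carbon, 84.1 ± 14.4 and 100.0 ± 21.7. The isomerase gene Ebp read 278 ± 66.8 and 278 ± 26.9, and the sign of its difference (0.019) turned under each other library scaling. Fdft1, the squalene synthase, read 31.1 ± 6.61 and 32.8 ± 8.45 and shares exon bases with Ctsb on the other strand. The sterol reductase Tm7sf2 read 25.2 ± 6.92 and 26.3 ± 3.91 and overlaps Vps51 on the same strand.

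Hsd17b7, the ketosteroid reductase of this route (ENSMUSG00000026675, GRCm38 chromosome 1, 169949535 to 169969241), went against its neighbours and is singled out after its values were seen. It read 269, 184 and 626 under vehicle and 128, 178, 300.5 and 122 under PEGPH20. Vehicle replicate 33 was by far the highest and PEGPH20 replicate 19 the next, and the groups overlapped. The difference was -0.88 ± 0.42 (95% interval -1.81 to 0.054; limma adjusted p = 0.434), which became -0.38 without vehicle replicate 33 and -1.26 without vehicle replicate 16. The 6 fibroblast markers summed to 16779.6, 15884 and 40635 in the vehicle and 7481, 17206, 19595 and 9673 in the PEGPH20 libraries, with replicates 33 and 19 again the highest of their groups. The part of fibroblasts in the Hsd17b7 values was not tested.

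**Figure D4:**
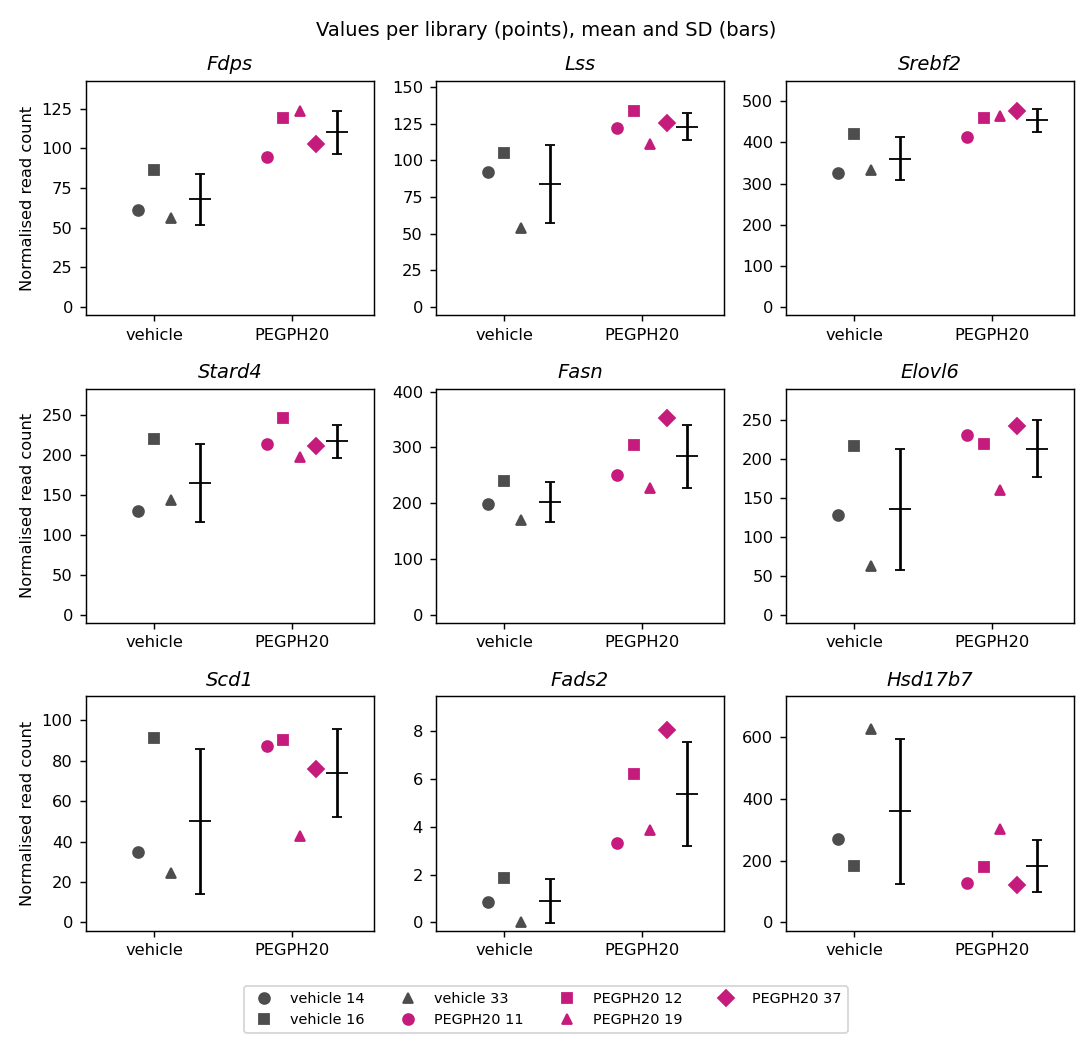
Normalised read counts of 9 genes in each library (points; the symbol marks the replicate), with mean and SD of each group as bars (vehicle n = 3, PEGPH20 n = 4). Fdps, Lss and Fads2 do not overlap between groups; in Stard4 and Elovl6 vehicle replicate 16 (square) lies within the PEGPH20 range, and in Scd1 it is the highest library; Hsd17b7 is highest in vehicle replicate 33 at 625.6.

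Among the regulators, Srebf2 read higher with PEGPH20, while Srebf1, Insig2 and Scap differed little. Srebf2, the SREBP of sterol genes (ENSMUSG00000022463, GRCm38 chromosome 15, 82147181 to 82205379), read 326, 420.0 and 334 under vehicle and 413, 460.2, 465 and 476 under PEGPH20. Only vehicle replicate 16 and PEGPH20 replicate 11 crossed. The difference was 0.34 ± 0.11 (95% interval 0.09 to 0.59; limma adjusted p = 0.344) and 0.46 without vehicle replicate 16.

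Srebf1, the SREBP of fatty acid genes, read 69.7, 108 and 86.8 under vehicle and 82.0, 89.6, 81.7 and 93.4 under PEGPH20. Replicates 14 and 16 of the vehicle group bracketed all PEGPH20 tumours, and the difference was -0.002 ± 0.16 (95% interval -0.36 to 0.35). A 3′ count does not separate the forms of this gene that start at different promoters. Its exons also overlap those of Rai1 on the other strand and Mir6922 on the same strand.

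Stard4, a sterol carrier of the cytosol (ENSMUSG00000024378, GRCm38 chromosome 18, 33199355 to 33213862), read 131, 221 and 144 under vehicle and 214, 247, 198 and 212 under PEGPH20. Replicate 16 was the vehicle tumour inside the PEGPH20 range, and the others were below it. The difference was 0.43 ± 0.17 (limma adjusted p = 0.392) and 0.66 without that replicate.

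Insig1, the retention protein that is itself an SREBP target, was nearly level over the vehicle tumours. It read 32.3, 33.1 and 33.8 there and 45.6, 41.3, 33.7 and 29.2 with PEGPH20. Its difference was 0.15 ± 0.20 (95% interval -0.28 to 0.59), and its groups overlapped. Insig2 read 279.7 ± 4.72 with vehicle and 268 ± 47.6 with PEGPH20. Scap, the escort protein, read 183, 159.9 and 159.6 and 159, 163, 188 and 173, the narrowest range of the 33 genes, with a difference of 0.027 ± 0.11 whose sign turned with DESeq2 or upper-quartile scaling. An antisense gene model overlaps the exons of Scap.

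The fatty acid genes varied to different degrees. Elovl6, Scd1, Fasn and Fads2 read higher with PEGPH20, while Acly, Acaca and Scd2 stayed within a 1.36-fold range over all 7 libraries. The median log2 difference of the 9 was 0.30, with 7 above 0. Fasn, the fatty acid synthase (ENSMUSG00000025153, GRCm38 chromosome 11, 120805846 to 120824547), read 199, 239.9 and 169 under vehicle and 251, 305, 227 and 352 under PEGPH20. Vehicle replicate 16 lay above PEGPH20 replicate 19 and below the other PEGPH20 tumours. The difference was 0.48 ± 0.17 (95% interval 0.094 to 0.86; limma adjusted p = 0.357).

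Elovl6, which lengthens palmitate, is given in every library after its values were seen, as are Scd1, Scd2, Me1, Sqle and Cyp51. It read 127, 217 and 62.5 under vehicle and 230.4, 218, 160.2 and 242 under PEGPH20, so vehicle replicate 33 was the lowest and replicate 16 lay among the PEGPH20 tumours. The difference was 0.80 ± 0.35 (limma adjusted p = 0.404), 0.34 without vehicle replicate 33 and 1.23 without vehicle replicate 16.

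The stearoyl-CoA desaturases Scd1 and Scd2 are neighbours on chromosome 19, and both put the double bond into stearate. Scd1 read 34.9, 91.0 and 24.3 under vehicle and 87.0, 90.3, 42.5 and 75.9 under PEGPH20, a 3.75-fold range, with vehicle replicate 16 the highest. Scd2 read 1088, 1343 and 1126 and 1134, 1197, 1068 and 1078, a 1.26-fold range. Their differences were 0.72 ± 0.42 (95% interval -0.22 to 1.66) and -0.078 ± 0.10 (95% interval -0.30 to 0.14), and a difference between them was not tested. Without vehicle replicate 16 that of Scd1 was 1.26. Their 3′ ends share no 75-base stretch with another gene model, while the exons of Scd2 overlap Mir5114 on the same strand.

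Fads2, the desaturase that opens the route to long polyunsaturated fatty acids (ENSMUSG00000024665, GRCm38 chromosome 19, 10062765 to 10101746), was close to the detection limit. It had 1, 2 and 0 reads in the vehicle libraries and 4, 9, 7 and 11 in the PEGPH20 libraries, or 0.872, 1.84 and 0 and 3.31, 6.20, 3.87 and 8.03 normalised read counts. Every PEGPH20 tumour was above every vehicle tumour. Its pooled reads, 3 with vehicle and 31 with PEGPH20, gave a ratio of 6.00 (exact 95% interval 1.87 to 30.6, counting error only). Its mean with vehicle was under the filter of 1, so that it was tested only through its PEGPH20 values. The log2 difference of 1.80 ± 0.48 had limma's adjusted p = 0.305, and edgeR's filter left the gene out. Its neighbour Fads1, the next desaturase of that route, read 51.1 ± 14.9 and 58.1 ± 12.9, with overlap.

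The enzymes that supply the route differed little or varied within groups. Acly, which makes cytosolic acetyl-CoA from citrate, read 263 ± 29.1 with vehicle and 234 ± 15.5 with PEGPH20, a difference of -0.16 ± 0.11. Acaca, the carboxylase that commits acetyl-CoA to fatty acids, read 71.1 ± 6.52 and 74.9 ± 9.96. Me1, the malic enzyme that provides NADPH, read 699, 844 and 442 and 990.2, 741, 633 and 814, with vehicle replicate 33 the lowest and the groups overlapping. An antisense gene model overlaps Me1 and another Elovl6, while 22.1% of the 3′ stretches of Acaca and 4.39% of those of Elovl6 recur in other gene models.

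Other genes of lipid metabolism, in 6 lists of 51 genes, were mixed, and the lists differed in direction. Of the 50 tested, 25 were above 0 and 25 below, and 0 had a limma adjusted p under 0.05. With all libraries, 2 of 50 were higher and 2 lower without overlap (6.72% and 4.45% of all tested genes). Without vehicle replicate 16, 32 of 49 were above 0 (56.2% of all tested genes), and 11 of 50 were higher and 5 lower without overlap (19% and 11.4% of all). The proteases and partners of SREBP were above 0 in 2 of 6 genes: Sp1, a GC box factor, read 758, 845 and 731 under vehicle and 723, 645, 679 and 659.6 under PEGPH20 (-0.20 ± 0.088), without overlap, and the NF-Y subunit Nfya had a difference of -0.15 ± 0.17. Genes of the liver X receptors and sterol efflux were above 0 in 1 of 5: the exporter Abca1 read 163 ± 25.7 and 129 ± 22.7 (-0.34 ± 0.17), and Mylip, a ligase for lipoprotein receptors, -0.11 ± 0.27. This direction rested on vehicle replicate 16. With that replicate left out, 4 of 5 were above 0 (median 0.010, against -0.012 with all libraries).

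Sterol trafficking and storage genes were above 0 in 2 of 8, namely Tmem97 (0.33 ± 0.19) and Stard3 (0.15 ± 0.10), and genes of the isoprenoid branch in 6 of 7, led by the ubiquinone pathway genes Pdss1 (0.30 ± 0.16) and Coq2 (0.35 ± 0.24). Dhdds, named after its values were seen, was the isoprenoid gene below 0. It read 59.3, 68.0 and 59.0 under vehicle and 48.9, 53.7, 58.0 and 58.4 under PEGPH20, without overlap. Other lipid synthesis genes were above 0 in 4 of 14 (median -0.075), and in 8 of 13 without vehicle replicate 16 (median 0.0815). Hsd17b12, a reductase of fatty acid elongation, read 612, 651 and 629 under vehicle and 794, 772, 764 and 772 under PEGPH20, with no overlap, a difference of 0.30 ± 0.075 (limma adjusted p = 0.305). Acss2, which makes acetyl-CoA from acetate, read 13.1, 30.3 and 15.6 and 36.5, 48.9, 23.8 and 27.0 (0.80 ± 0.34), with replicate 16 once more the highest vehicle tumour.

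Fatty acid oxidation, the opposite pathway, was above 0 in 10 of 10 genes (54% of all tested genes), with a median of 0.19, again with 0 called. Leaving out vehicle replicate 33 gave 9 of 10 (median 0.12). Ppara, 1 of the 10, had only 0 to 4 reads per library. Cpt1a, which admits fatty acids to mitochondria, read 177, 176 and 176 under vehicle and 207, 203, 204 and 215 under PEGPH20. It was the 1 of the 10 genes whose groups did not overlap (6.72% of all tested genes were higher without overlap). The difference was 0.23 ± 0.088 (limma adjusted p = 0.374). The coactivator gene Ppargc1a read 210.1, 283 and 95.4 and 354, 237, 229.8 and 452, with vehicle replicate 33 lowest and replicate 16 inside the PEGPH20 range (0.77 ± 0.36).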

How the data were processed

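A 3′ kit (QuantSeq FWD) took 200 ng of RNA per tumour, read for 75 nt, per the labels' protocols. The submitters' processing notes name the build GRCm38; for the aligner, counter and scaling method nothing is given in the sources. The signal deposited by the authors consists of reads over a size factor, judged from the values: 100% were whole multiples of the smallest step of their library (tolerance 0.01), which recovered the reads. Symbols matched 47224 of 47643 identifiers. The labels do not state that each library came from a separate mouse, so p-values measure the spread between these samples; libraries of a group differed beyond sampling noise (chi-square per degree of freedom 6.59 to 16.3).

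The main test was limma 3.58.1 with an intensity trend on log2(value + 1) for all genes with a mean of at least 1, with adjustment over all 17132 genes and a threshold of 0.05. This scale understates changes of low genes. The alternatives were DESeq2 size factors, TMM or upper-quartile scaling, edgeR 4.0.16 and DESeq2 1.42.0 on recovered reads, a pseudocount of 0.1, no filter, 5 CPM in 3 libraries, a threshold of 0.1, and each library left out. Leaving out vehicle replicate 16 and PEGPH20 replicate 11 together, the libraries richest in muscle markers, was added after seeing the data. The test scripts were tested on simulated data.

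The members and lists were chosen with earlier results of these data known. All 33 members are given. Values in every library are given for members without overlap, for the 2 of smallest p per role, and for Srebf1, Srebf2, Insig1 and Scap, by a written rule; other genes so shown were picked after seeing values. The 2 genes of smallest p of each pathway list and some defining markers are named. Gene models and exon overlaps come from GENCODE M21 on the same build. Intervals on reads cover counting error only.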

Additional observations from a re-analysis of the deposited data

Results flagged for a closer look

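The mean level of the 33 genes in PEGPH20 replicate 12 was 7.1 on the log2(value + 1) scale, far from the other PEGPH20 libraries, which lay close together at 6.9 to 6.92. The gap took 0.873 of the range of the 4 libraries, above Dixon's critical value. It was the 1 such case in 38 sets of 4 values examined (33 genes and 5 means). Chance alone gives about 1 case in every 20 sets, so 1 in 38 is no more than chance would give. The sets are not independent, since the means are made of the same 33 genes. Its muscle marker sum was 14.5 and its adipocyte marker sum 327 normalised read counts, the first the lowest of the 7 libraries and the second within the range of the others.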

How the results depend on the processing

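No member was called in any of the 17 alternative settings, so the count of 0 held throughout; the smallest adjusted p of any member was that of Fdps without vehicle replicate 16 (limma adjusted p = 0.0623). Over all genes DESeq2 called 77 (0.979% of those with an adjusted p), leaving out single libraries gave 0 to 3, the latter without vehicle replicate 16, and leaving out the muscle-rich pair gave 2. The median of the 33 genes was 0.11 to 0.39 over the settings, highest without the muscle-rich pair. The sign of the difference turned for Ebp with DESeq2 size factors (-0.016), TMM (-0.0079), upper-quartile scaling (-0.022), edgeR (-0.028) and DESeq2 (-0.028), for Scap with DESeq2 size factors (-0.0076), upper-quartile scaling (-0.014), edgeR (-0.0084) and DESeq2 (-0.0068), and for Sqle in edgeR (-0.010) and DESeq2 (-0.011). Without the muscle-rich pair it turned for Hmgcs1 (0.18), Srebf1 (0.18) and Scd2 (0.0082). With single libraries left out the ranges that crossed 0 were -0.10 to 0.68 for Idi1, -0.083 to 0.30 for Sqle, -0.063 to 0.28 for Tm7sf2, -0.093 to 0.21 for Ebp, -0.048 to 0.38 for Fads1, -0.25 to 0.15 for Hmgcs1, -0.16 to 0.15 for Srebf1, -0.021 to 0.092 for Scap, -0.14 to 0.015 for Scd2, -0.0093 to 0.44 for Mvk, -0.045 to 0.37 for Pmvk and -0.092 to 0.22 for Fdft1. The cause was not tested. Of the 33 genes, the direction of the others was the same in every setting that tested them. No paired analysis was possible because the groups share no replicate number. With 3 and 4 libraries the intervals were wide, and with 3 and 31 pooled reads Fads2 was limited by depth.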

Other observations

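The spread within groups differed for these genes. The median coefficient of variation of the 33 genes was 24.0% among vehicle libraries and 13.9% among PEGPH20 libraries, where all tested genes had 21.0% and 17.2%. The 33 genes together took 0.171%, 0.215% and 0.172% of reads in vehicle replicates 14, 16 and 33 and 0.196% to 0.223% in the PEGPH20 libraries. Cidea, a lipid droplet protein gene of brown fat and sebaceous glands, read 28.8, 16.5 and 19.1 in vehicle tumours and 51.4, 50.99, 34.8 and 35.8 in PEGPH20 tumours, without overlap, and Krt79, a keratin of sebaceous ducts, read 97.6, 98.3 and 97.2 and 115, 112, 122 and 121. They were the main detected genes of the sebaceous list, while Scd3, Elovl3, Far2 and Awat2 had at most 4.36 normalised read counts in any library. These genes were picked after their values were seen.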
